A study of Mus musculus with 6 samples.

Results

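Perm1, Mas1, Gm10389, 5031410I06Rik and Omg are genes whose normalized counts stood higher in Ascl5-mutant than in wild-type mouse molars of both mutant genotypes, and Rai14 and Nf1 are the genes on the opposite strand that enclose Gm10389 and Omg. These 7 genes were taken by symbol from 24961 genes named in both deposited tables. The first 5 were picked from the same comparisons of mutant with Ascl5WT/WT molars that are shown here, so their values and fold changes are a description and carry no test.

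Upper first molars were taken from mouse pups on postnatal day 1, with 2 RNA libraries each of homozygous Ascl5Mut/Mut, heterozygous Ascl5Mut/WT and Ascl5WT/WT molars. Ascl5 is a transcription factor of the basic helix-loop-helix family known from dental epithelium, and the study asked how its mutation alters transcript levels. The labels do not state which change the mutant allele carries, the strain, or how many animals were pooled, so the spread between 2 libraries may be technical. One deposited table holds Ascl5Mut/Mut with Ascl5WT/WT and the other Ascl5Mut/WT with the same Ascl5WT/WT libraries. They were normalized separately, so each mutant value is set against Ascl5WT/WT of its own table, and the comparisons share their controls. All 6 libraries carry the same batch label. The library numbers of all mutants are lower than those of Ascl5WT/WT, and no label names these numbers as a batch.

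The members have different known roles. Perm1 is induced by the coactivator PGC-1 and the estrogen-related receptors (ERR) and promotes mitochondrial and contractile gene programs in striated muscle. Mas1 is a G protein-coupled receptor of the renin-angiotensin system that responds to a short angiotensin fragment. Omg is a membrane-anchored glycoprotein of neurons and myelinating glia that limits neurite growth through the Nogo receptor, and Nf1 encodes neurofibromin, which switches Ras off. Rai14 (ankycorbin) is an ankyrin-repeat protein that associates with actin. Gm10389 is a long noncoding RNA model, and 5031410I06Rik is annotated as protein-coding and shares sequence with Speer genes.

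No member shares a chromosome with Ascl5, which lies on chromosome 1 (136050804 to 136051370, GRCm38, GENCODE vM21). Ascl5 itself stood at 0 in each of the 6 libraries and gave no check of the genotypes. Perm1 occupies chromosome 4 (156215868 to 156221307, plus strand), and Mas1 chromosome 17 (12841079 to 12868143, minus strand). Gm10389 (chromosome 15, 10600293 to 10611651, plus strand) lies within Rai14 (10568969 to 10714624, minus strand). Omg (chromosome 11, 79500982 to 79504084, minus strand) lies within Nf1 (79339693 to 79581612, plus strand). 5031410I06Rik sits on chromosome 5 (26098668 to 26105362, minus strand).

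The promoters of Perm1, Mas1 and Gm10389 are shown because these members were several times higher in both mutant genotypes, with reads in every Ascl5WT/WT library, and because a factor of the Ascl5 family binds E-boxes. Each is 250 bases before to 50 bases after the gene start from RefSeq (GRCm38.p6), written 5′ to 3′ on the gene's strand. The windows are chr4:156215677-156215976 for Perm1, chr17:12868094-12868393 on the minus strand for Mas1 and chr15:10600043-10600342 for Gm10389. Capitals mark matches to the E-box CANNTG and, in Perm1 alone of these 3 windows, to the ERR half-site AAGGTCA, read here as its reverse complement.
Perm1: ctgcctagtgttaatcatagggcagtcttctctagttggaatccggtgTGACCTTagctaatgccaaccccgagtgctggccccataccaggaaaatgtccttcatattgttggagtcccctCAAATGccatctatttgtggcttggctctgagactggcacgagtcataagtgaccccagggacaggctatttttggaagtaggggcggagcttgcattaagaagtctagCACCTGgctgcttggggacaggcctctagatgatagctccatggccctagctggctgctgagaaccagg
Mas1: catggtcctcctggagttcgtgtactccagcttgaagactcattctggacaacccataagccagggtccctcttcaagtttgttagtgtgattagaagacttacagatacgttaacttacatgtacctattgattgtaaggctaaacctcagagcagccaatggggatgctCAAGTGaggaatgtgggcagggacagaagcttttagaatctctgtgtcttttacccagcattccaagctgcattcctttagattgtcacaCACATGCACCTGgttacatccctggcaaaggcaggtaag
Gm10389: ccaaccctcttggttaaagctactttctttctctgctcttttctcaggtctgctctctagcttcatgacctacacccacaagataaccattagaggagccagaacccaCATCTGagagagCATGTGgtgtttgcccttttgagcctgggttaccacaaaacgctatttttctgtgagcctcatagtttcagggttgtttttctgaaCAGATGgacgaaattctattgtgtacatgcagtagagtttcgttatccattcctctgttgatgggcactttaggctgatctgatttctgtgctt

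E-boxes were frequent in promoters at large. CANNTG stood in 72.3% of 32851 RefSeq promoter windows of the same length, either strand counted. The window of Perm1 held 2 matches, that of Mas1 3 and that of Gm10389 3, 2 of the Mas1 matches lying end to end. The form CACCTG stood in 20.2% of windows. It lay at -19 from the start of Perm1 and at 17 after that of Mas1, with no match for Gm10389. Distances are from the RefSeq start, which for Perm1 lies downstream of its GENCODE start given above. By the GENCODE start, the CACCTG of Perm1 lies inside the gene. CAGCTG was in none of the 3 windows and in 16.3% of all. The AAGGTCA match of Perm1, at -202 from its start, is a motif held by 4.72% of windows. The windows of Nf1 and 5031410I06Rik and 1 of 2 windows of Rai14 held no CANNTG, while the other Rai14 window held 3.

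Values are the deposited normalized counts on a linear scale. Their low values sat at multiples of a step of 109 to 139, read here as the worth of 1 read, which puts the libraries at an estimated 90443 to 116513 reads assigned to genes. A floor of 3 reads is then 328 to 416 normalized counts, depending on the library, for counting error only. Differences are mutant minus Ascl5WT/WT in mean log2(normalized count + 120), which understates the change of low genes. Summed markers of the labelled tissue were lower in homozygous molars, but a few genes carried these sums and others did not follow. The 12 molar epithelium genes summed to 10459 and 33031 in Ascl5Mut/Mut against 46677 and 36042 in Ascl5WT/WT, and to 27165 and 59804 in Ascl5Mut/WT against 47494 and 37801. Shh, a signal of the enamel knot, was at 0 in both libraries of Ascl5Mut/Mut against 2146 and 1340 in Ascl5WT/WT, and Fgf4 was at 0 in all libraries. The 12 molar mesenchyme genes summed to 20822 and 13408 in Ascl5Mut/Mut against 62929 and 62844 in Ascl5WT/WT, and to 25942 and 8551 in Ascl5Mut/WT against 64184 and 65473. Most of the Ascl5WT/WT sums was Dlx1, a homeobox gene that was lower in Ascl5Mut/Mut (limma adjusted p = 0.00405) and in Ascl5Mut/WT (limma adjusted p = 1.41e-05). Vim of the same list went the other way in Ascl5Mut/Mut, with 15610 and 9987 against 9492 and 6430. Of the epithelium list, Trp63 had 1049 and 5829 in Ascl5Mut/Mut against 21134 and 13756. Krt14 overlapped there, at 6362 and 20549 against 14740 and 13227.

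Perm1 was several times higher in both mutant genotypes. In Ascl5Mut/Mut molars its normalized counts were 23321 and 28968, against 4477 and 3811 in Ascl5WT/WT. In Ascl5Mut/WT it had 15867 and 25343, against 4555 and 3966 in Ascl5WT/WT of that table. All mutant libraries were far above both Ascl5WT/WT libraries, with no overlap. The means stood at a ratio of 6.31 in homozygous and 4.84 in heterozygous molars, or 2.62 (SE 0.37) and 2.21 (SE 0.40) on the log2 scale. Even the lowest mutant value exceeded the highest Ascl5WT/WT value 5.21-fold in the first table and 3.48-fold in the second.

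**Figure D1:**
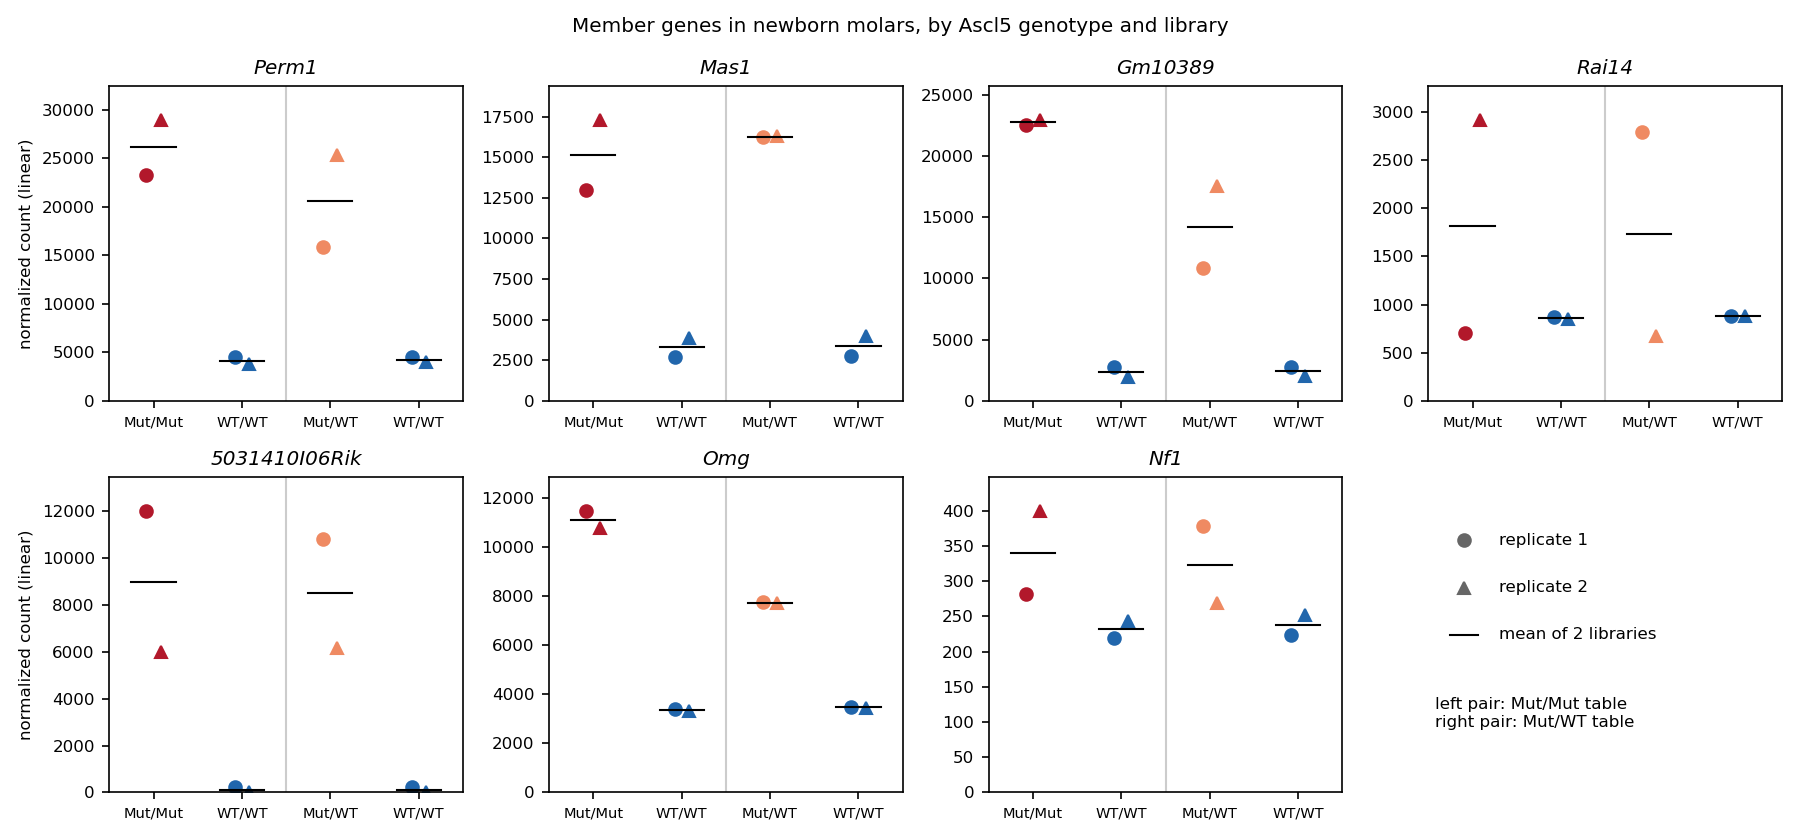
Normalized counts (y, linear scale, separate for each gene) of the 7 genes by Ascl5 genotype (x), with circles and triangles for replicates 1 and 2 and a bar for the mean of 2 libraries. Perm1, Mas1, Gm10389, 5031410I06Rik and Omg have all 4 mutant points above the Ascl5WT/WT points, whereas Rai14 has 1 mutant library of each genotype below them and Nf1 stays at or under 399.

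The summed skeletal muscle genes ranked the libraries differently from Perm1. Perm1 is best known from striated muscle, and a dissected molar can carry muscle, so 20 muscle genes were summed per library. Ascl5Mut/Mut molars gave sums of 247500 and 13677, against 8593 and 39658 in Ascl5WT/WT. It was 76852 and 20434 in Ascl5Mut/WT, against 8727 and 41209 in Ascl5WT/WT. The sum in Ascl5Mut/Mut replicate 2, the library with the highest Perm1 value, was below that of Ascl5WT/WT replicate 2. A few genes carry most of the sum. Myh8, a perinatal myosin heavy chain, had 68080 and 3848 against 109 and 5694, and Ttn, the giant sarcomere protein, had 114270 and 3144 against 6405 and 16184. Not all muscle genes ordered the libraries so, since Casq1, a calcium store protein, had 1541 and 2450 against 440 and 950, and Des, the muscle filament desmin, had 1965 and 980 against 0 and 116. Of the muscle list, limma called 0 of 9 tested genes in Ascl5Mut/Mut and 0 of 7 in Ascl5Mut/WT. Over all genes tested, limma called 0.856% in Ascl5Mut/Mut and 0.549% in Ascl5Mut/WT in either direction, so at that share a list with few tested genes is likely to hold 0 calls. Myod1 and Myh4 were at 0 throughout. The part of muscle RNA in the Perm1 values was not tested.

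**Figure D2:**
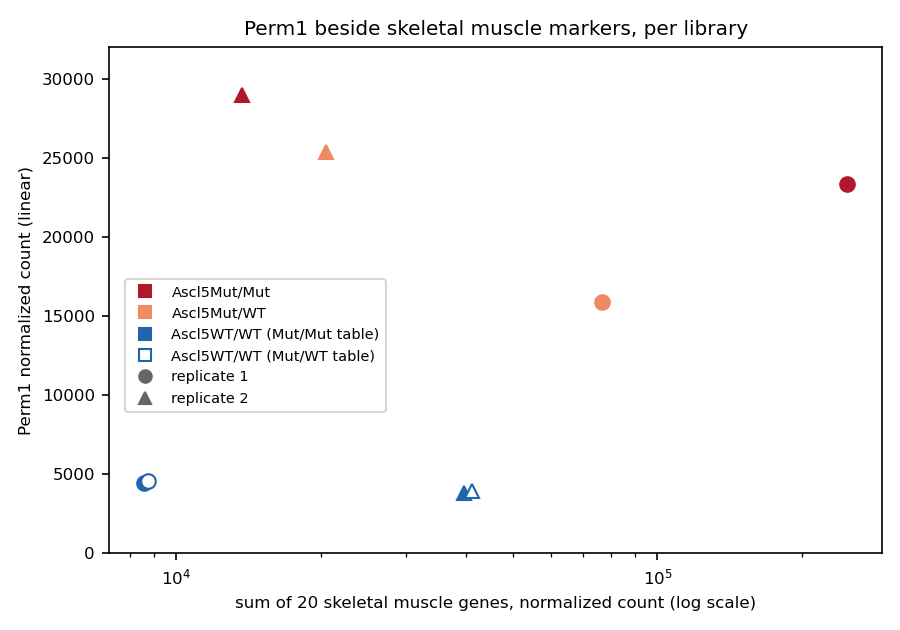
Perm1 normalized count (y, linear) against the sum of 20 skeletal muscle genes (x, log scale), 1 point per library, with Ascl5WT/WT shown once per table. The 2 mutant libraries with the highest Perm1, at 28968 and 25343, have muscle sums of 13677 and 20434, below the 39658 and 41209 of Ascl5WT/WT replicate 2.

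The partners of Perm1 were sparsely counted. Of 21 other genes of the PGC-1 and ERR axis, 3 were high enough to test in Ascl5Mut/Mut and 2 in Ascl5Mut/WT, and limma called 0 in either direction. Mfn1, a mitochondrial fusion GTPase, had 5883 and 2275 in Ascl5Mut/Mut against 109 and 1816 in Ascl5WT/WT (limma adjusted p = 0.387), and 2259 and 1479 in Ascl5Mut/WT against 112 and 1896 (limma adjusted p = 0.672). Its paralog Mfn2 had 1954 and 1245 against 2615 and 3667 in the first table (limma adjusted p = 0.58). Gabpa, a transcription factor of mitochondrial genes, had 2357 and 1317 against 330 and 992 (limma adjusted p = 0.587). The coactivator gene Ppargc1a was at 0 in all 4 libraries of that table. Plekhn1, whose end lies 149 bases from that of Perm1 on the other strand, had 410 and 140 in Ascl5Mut/Mut and was at 0 in Ascl5WT/WT and Ascl5Mut/WT.

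Mas1 was several times higher in homozygous and in heterozygous molars, by similar ratios. It had 12993 and 17306 normalized counts in Ascl5Mut/Mut, against 2733 and 3847 in Ascl5WT/WT. The Ascl5Mut/WT libraries gave 16224 and 16292, against 2789 and 4015 in Ascl5WT/WT. The groups did not overlap, and the 2 heterozygous libraries were almost equal. The log2 difference was 2.17 (SE 0.43) in Ascl5Mut/Mut and 2.24 (SE 0.41) in Ascl5Mut/WT, or ratios of means of 4.60 and 4.78. Whether these effects differ between genotypes was not tested, since the tables were normalized separately.

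Mas1 lies in the imprinted Igf2r region. Of its 2620 exonic bases, 2290 fall inside the body of Airn, the noncoding RNA on the other strand that silences its neighbours on the paternal chromosome, though none falls in an annotated Airn exon. Airn had 0 and 1336 in Ascl5Mut/Mut against 111 and 0 in Ascl5WT/WT, and 125 and 0 in Ascl5Mut/WT against 112 and 0, so only Ascl5Mut/Mut replicate 2 was above the floor. Igf2r, the mannose-6-phosphate receptor that clears IGF2 and the nearest counted gene below Mas1, had 9606 and 11146 in Ascl5Mut/Mut against 4352 and 5363 in Ascl5WT/WT. It had 12432 and 6682 in Ascl5Mut/WT against 4440 and 5597. Both Igf2r differences were in the direction of Mas1 without overlap but did not pass (log2 difference 1.08 and 0.86, limma adjusted p = 0.366 and 0.59). Slc22a2, Slc22a3 and Plg, other genes of the region, were at 0 in all libraries.

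Few other genes of the renin-angiotensin system were counted high enough to test. Of 19 other genes, 6 were at 0 throughout the Ascl5Mut/Mut table, among them the substrate Agt, the enzymes Ren1 and Ace and the mast cell chymase Cma1. Limma called 0 of the 3 testable genes there and 0 of 1 in Ascl5Mut/WT, in either direction. The receptor Agtr2 had 1650 and 1725 in Ascl5Mut/Mut against 0 and 2131 in Ascl5WT/WT (limma adjusted p = 0.64). Mme, the peptidase neprilysin, had 1846 and 2443 against 216 and 0 (limma adjusted p = 0.503). The accessory protein gene Atp6ap2 had 829 and 3291 against 1208 and 124 (limma adjusted p = 0.622).

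Gm10389 had the largest difference of the members counted above the floor in all libraries, and Rai14 around it was higher in only 1 library of each mutant genotype. Gm10389 had 22524 and 22961 normalized counts in Ascl5Mut/Mut, against 2752 and 1948 in Ascl5WT/WT. It had 10826 and 17555 in Ascl5Mut/WT, against 2797 and 2025 in Ascl5WT/WT. Every mutant library exceeded every Ascl5WT/WT library, by at least 8.18-fold in the first table and 3.87-fold in the second. The log2 difference was 3.23 (SE 0.41) in Ascl5Mut/Mut and 2.48 (SE 0.45) in Ascl5Mut/WT, and the ratios of means were 9.68 and 5.89.

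Rai14 had 708 and 2920 in Ascl5Mut/Mut, against 867 and 856 in Ascl5WT/WT. In Ascl5Mut/WT it had 2794 and 678, against 877 and 885. In each mutant genotype 1 library was above Ascl5WT/WT and the other below it, so the groups overlapped. Its log2 difference of 0.69 (SE 0.92) and 0.61 (SE 0.89) came from those single libraries, and was -0.25 without Ascl5Mut/Mut replicate 2 and -0.33 without Ascl5Mut/WT replicate 1. The Rai14 values stand for about 5 to 22 estimated reads.

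Gm10389 and Rai14 therefore did not keep a fixed ratio. Gm10389 over Rai14 was 31.8 and 7.86 in Ascl5Mut/Mut, against 3.17 and 2.28 in Ascl5WT/WT, and 3.87 and 25.9 in Ascl5Mut/WT, against 3.19 and 2.29. All mutant ratios were higher, but that of Ascl5Mut/WT replicate 1 only slightly. Of the 4332 exonic bases of Gm10389, 89 also lie in Rai14 exons and the other 97.9% in Rai14 introns, so reads from unspliced Rai14 RNA would fall on Gm10389 if strand was not used in counting. The kit keeps strand, but the strand setting used for counting is not given in the sources used here, and the part of this in the result was not tested. Per kilobase of exon, Gm10389 stood at 2499 and 4052 normalized counts in Ascl5Mut/WT against 646 and 467 in Ascl5WT/WT. Rai14 stood at 330 and 80.2 in those Ascl5Mut/WT libraries on the same scale. The flanking gene Ttc23l was at 0 in all libraries.

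Few other actin-bundling and ankyrin genes could be tested. Of 17 besides Rai14, limma called 0 of 4 tested in Ascl5Mut/Mut and 0 of 5 in Ascl5Mut/WT, with a median log2 difference of 0.34 and 0.04, against -0.02 and 0.04 over all genes tested. Palld, an actin cross-linker, had 2304 and 2618 in Ascl5Mut/Mut against 921 and 683 in Ascl5WT/WT (limma adjusted p = 0.481). Actn4, an alpha-actinin, had 1683 and 3341 against 2079 and 1749 (limma adjusted p = 0.88). Ank2, an adaptor of membrane proteins, had 1869 and 1083 against 1273 and 1845 (limma adjusted p = 0.971).

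Omg was higher in every mutant library, with little spread within genotypes, while Nf1 stayed at the limit of detection. Omg had 11461 and 10765 normalized counts in Ascl5Mut/Mut, against 3415 and 3324 in Ascl5WT/WT. It had 7751 and 7728 in Ascl5Mut/WT, against 3472 and 3457. No library overlapped between genotypes within a table. The means were 11113 ± 492 against 3370 ± 64.5 in the first table and 7739 ± 16.3 against 3464 ± 10.9 in the second (SD, n = 2 each). Omg stood at about 57 to 83 estimated reads per mutant library and 28 to 31 per Ascl5WT/WT library. These SDs are smaller than counting error at such read numbers, so they do not measure precision. The log2 difference was 1.69 (SE 0.42) and 1.13 (SE 0.44).

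Nf1 had 281 and 399 in Ascl5Mut/Mut, against 220 and 243 in Ascl5WT/WT, and 378 and 269 in Ascl5Mut/WT, against 224 and 253. These are 2 to 3 estimated reads per library, all at or under the floor, so no fold change is given. Per kilobase of exon Omg stood at 5144 and 4832 normalized counts and Nf1 at 17.7 and 25.2 in Ascl5Mut/Mut, and Omg at 1533 and 1492 and Nf1 at 13.9 and 15.3 in Ascl5WT/WT. All 2228 exonic bases of Omg lie in Nf1 introns. As for Gm10389, the part that unspliced RNA of the enclosing gene has in the Omg value was not tested.

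The other genes inside Nf1 allow a comparison. Evi2a and Evi2b, membrane proteins known from blood cells, lie on the strand of Omg within Nf1. Evi2a had 5390 and 7187 in Ascl5Mut/Mut against 556 and 2157 in Ascl5WT/WT, and 6455 and 5355 in Ascl5Mut/WT against 611 and 2425. Evi2b had 8739 and 7887 against 3528 and 4211, and 7555 and 9084 against 3557 and 4343. Neither gene overlapped between genotypes, and neither passed limma (adjusted p = 0.214 and 0.17 for Evi2a, 0.385 and 0.447 for Evi2b). AU040972, a noncoding model on the same strand, had 1512 and 2934 in Ascl5Mut/Mut against 1566 and 3156 in Ascl5WT/WT (limma adjusted p = 0.976), and 4966 and 3441 in Ascl5Mut/WT against 1602 and 3303 (limma adjusted p = 0.654). Besides Omg, which was chosen for it, Evi2a and Evi2b were thus higher in all mutant libraries of both genotypes, as were 11.0% of the 2029 genes tested in both tables, and AU040972 in those of Ascl5Mut/WT only. Evi2, annotated across Evi2a and Evi2b on their strand, was at 0 throughout, so the division of reads among these 3 is uncertain. Beyond Nf1, Rab11fip4 and Wsb1 did not exceed 222.

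**Figure D3:**
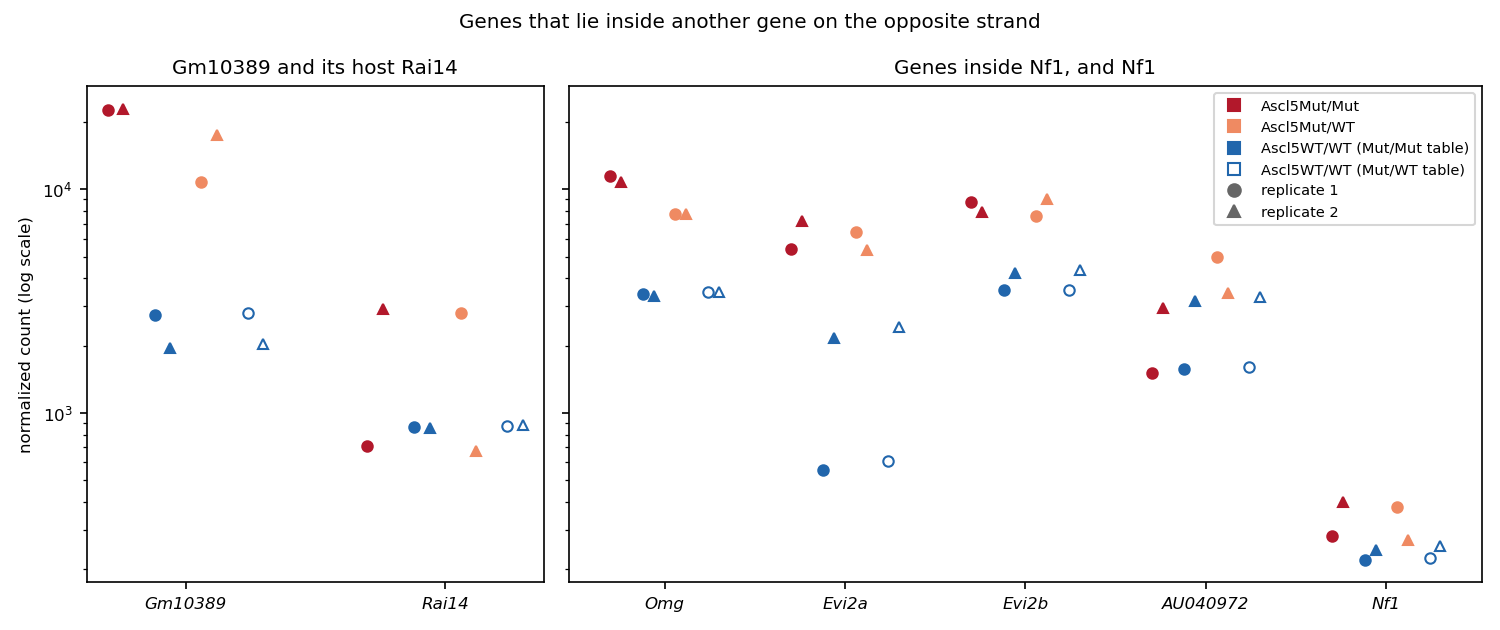
Normalized counts (y, log scale) of genes that lie inside another gene on the opposite strand, with each enclosing gene at the right of its panel, for every library. Gm10389, Omg, Evi2a and Evi2b have all mutant points above the Ascl5WT/WT points of their table, Rai14 does not, AU040972 does so in Ascl5Mut/WT alone, and Nf1 lies between 220 and 399.

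Markers of blood cells, glia and neurons were summed beside Omg, Evi2a and Evi2b. The myeloid list without Evi2a and Evi2b summed to 2513 and 3157 in Ascl5Mut/Mut against 1754 and 596 in Ascl5WT/WT, and to 1775 and 2588 in Ascl5Mut/WT against 1801 and 618. The receptor gene Csf1r had 1254 and 2069 in Ascl5Mut/Mut against 0 and 476, but overlapped in Ascl5Mut/WT, with 127 and 413 against 0 and 496. Ptprc was not higher in Ascl5Mut/Mut, with 139 and 0 against 1754 and 0. Aif1 and C1qb were at 0 throughout, and besides Evi2a and Evi2b no myeloid gene was counted high enough to test. The 12 genes of myelinating glia summed to 11009 and 5160 in Ascl5Mut/Mut against 4837 and 4517, and to 3524 and 3678 in Ascl5Mut/WT against 4926 and 4713. This sum was thus higher in Ascl5Mut/Mut and lower in Ascl5Mut/WT, while Omg was higher in both. Neuronal genes summed to 1407 and 407 in Ascl5Mut/Mut against 892 and 2463, and to 3279 and 835 in Ascl5Mut/WT against 894 and 2524, with Snap25 and Isl1 at 0 in all. The part of these cells in the Omg, Evi2a and Evi2b values was not tested. In bulk tissue, fewer cells of a type and less RNA per cell cannot be told apart.

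Few partners of Omg and Nf1 could be tested. Of 14 other genes of the Nogo receptor system, limma called 0 of 3 tested in each comparison. Tnfrsf19, a coreceptor, had 1202 and 581 in Ascl5Mut/Mut against 5023 and 4007 in Ascl5WT/WT (limma adjusted p = 0.203), and 3078 and 2638 in Ascl5Mut/WT against 5289 and 4316 (limma adjusted p = 0.661). Rtn4, which encodes Nogo, had 1336 and 771 against 945 and 7846 in the first table (limma adjusted p = 0.593). Of 27 Ras regulators and MAPK genes besides Nf1, 0 of 4 tested were called in each comparison. Rasa1, another gene whose protein switches Ras off, had 1246 and 3528 in Ascl5Mut/Mut against 2474 and 1726 in Ascl5WT/WT (limma adjusted p = 0.99).

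5031410I06Rik was well counted in the mutant molars and at the limit of detection in Ascl5WT/WT. It had 11995 and 5994 normalized counts in Ascl5Mut/Mut, against 222 and 0 in Ascl5WT/WT. It had 10806 and 6169 in Ascl5Mut/WT, against 225 and 0. Both mutant genotypes were similar in level, with no overlap with Ascl5WT/WT. The 2 Ascl5WT/WT libraries together hold about 2 estimated reads, against 130 in Ascl5Mut/Mut and 131 in Ascl5Mut/WT. The log2 difference of 5.41 (SE 0.88) and 5.35 (SE 0.85) is set by the pseudocount, and was 9.15 and 9.08 with a pseudocount of 1 and 3.91 and 3.85 with the largest pseudocount tried. Because its level in Ascl5WT/WT is so low, it entered the tested genes through the mutant libraries alone.

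Genes that share its sequence make this value uncertain. Among GENCODE transcripts, 13 other genes, called copies here and all on chromosome 5, held at least 20% of the 31-base words of 5031410I06Rik, up to 91.9% in Gm21698. Of these, 8 are in the tables, with 21.1% to 47.4% of the words. The closest, Gm21698, Gm21663 and Gm7347, are not among them, so the sums below leave them out. The way reads were divided among copies is not given in the sources used here. No other member shared more than 1.42% of its words with another gene. The 8 counted copies summed to 8979 and 4419 in Ascl5Mut/Mut against 110 and 1970 in Ascl5WT/WT, and to 11017 and 2689 in Ascl5Mut/WT against 112 and 2038. The mutant sums were higher in all libraries, as for 5031410I06Rik itself. The neighbour Gm10220, with 47.4% of the words, had 4363 and 3493 in Ascl5Mut/Mut and 3710 and 1084 in Ascl5Mut/WT and was listed at 0 in Ascl5WT/WT (limma adjusted p = 0.272 and 0.693). Gm10471, the neighbour on the other side, had 2794 and 133 in Ascl5Mut/Mut against 0 and 1353 in Ascl5WT/WT (limma adjusted p = 0.897).

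**Figure D4:**
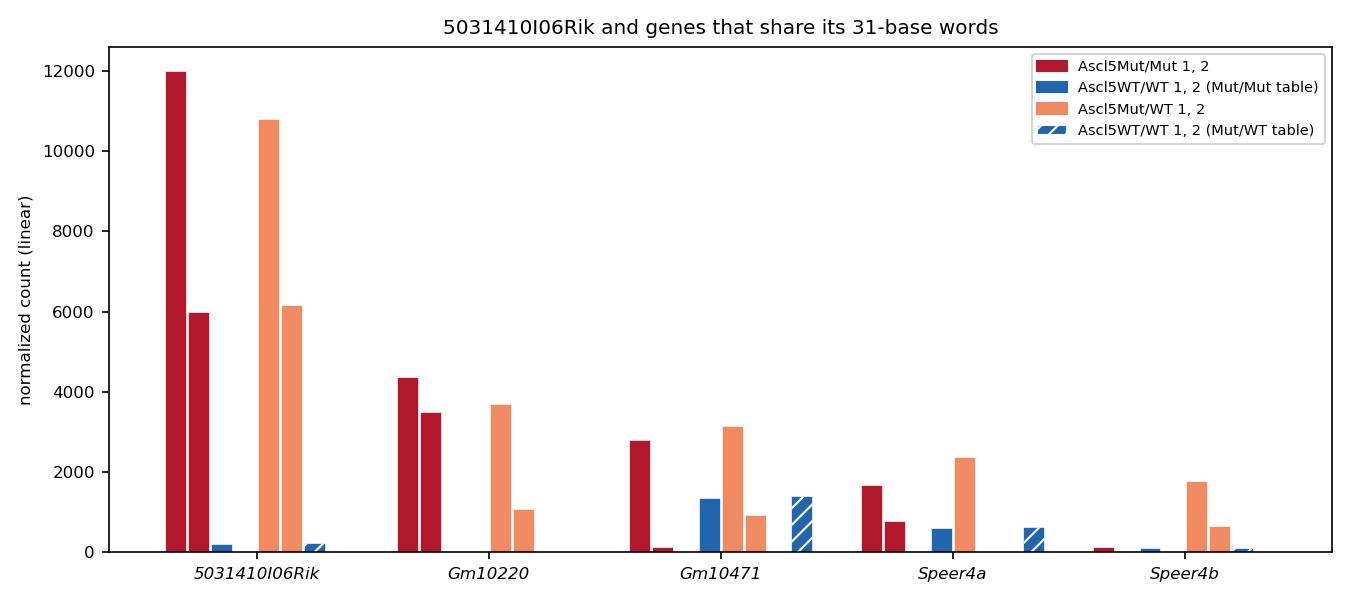
Normalized counts (y, linear from 0) of 5031410I06Rik and of the 4 counted copies that were above 0 in any library, 1 bar per library. Gm10220 has bars in all 4 mutant libraries and none in Ascl5WT/WT, whereas Gm10471, Speer4a and Speer4b also have Ascl5WT/WT bars.

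Among all genes tested, the members other than Rai14 stood toward the upper end of both comparisons. With a minimum mean of 1000, limma called 13 of 2336 genes higher in Ascl5Mut/Mut (0.557%), and these held 3 of the 6 tested members, namely Perm1, Gm10389 and 5031410I06Rik. It called 8 of 2370 higher in Ascl5Mut/WT (0.338%), and these held the same 3 and Mas1. Lower calls made up 0.300% in Ascl5Mut/Mut and 0.211% in Ascl5Mut/WT, and calls in either direction 0.856% and 0.549%. These calls are how the genes came to be chosen, so their number shows nothing further. Without either library of the mutant genotype 0 members were called in that comparison, while without either Ascl5WT/WT library 3 to 4 were. Genes with both mutant libraries above both Ascl5WT/WT libraries made up 22.0% of those tested in Ascl5Mut/Mut and 21.1% in Ascl5Mut/WT. Of 2029 genes tested in both, 11.0% had all mutant values above, and 5 of the 6 tested members did so, Rai14 being the exception. A log2 difference of at least 2 in both tables was rarer, at 1.82% or 37 genes, and was reached by Perm1, Mas1, Gm10389 and 5031410I06Rik but not Omg. The members other than Rai14 were picked as higher in both comparisons, so these counts of members show nothing further either.

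**Figure D5:**
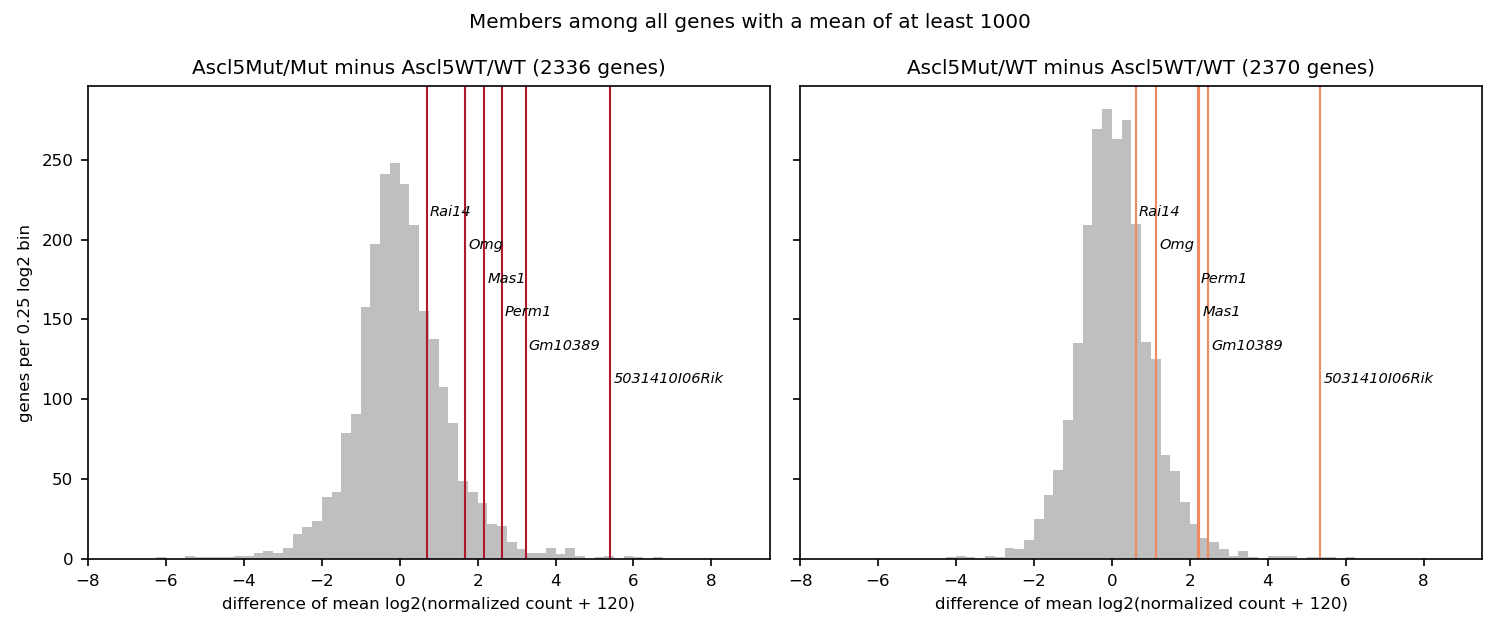
Histogram of the difference in mean log2(normalized count + 120) between mutant and Ascl5WT/WT (x) over all tested genes (y, genes per bin), with a line for each of the 6 tested members. Rai14 at 0.69 and 0.61 lies in the body of both distributions and 5031410I06Rik at 5.41 and 5.35 at their upper end.

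In order of log2 difference in Ascl5Mut/Mut, 5031410I06Rik stood first at 5.41, followed by Gm10389, Perm1, Mas1, Omg and Rai14. Its distance from Gm10389 depends on the pseudocount, since with the largest one tried the pair stood at 3.91 and 3.04. Neighbours from Gm10389 to Omg lay 0.45 to 0.61 apart, no more than 1.10 times their combined SE. In Ascl5Mut/WT, Gm10389 exceeded Mas1 by 0.24 and Mas1 exceeded Perm1 by 0.03, both less than the SE of either gene, and Perm1 exceeded Omg by 1.07.

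Profiles over the 6 libraries were compared as Euclidean distance in log2(normalized count + 120), each less its Ascl5WT/WT mean, among 2029 genes. Nearest to Perm1 were Rprd2, an RNA polymerase II regulator, at 0.51, Fchsd2, a membrane-bending adaptor of endocytosis, at 0.65, and Mas1 at 0.94, where the median gene was at 5.27. Nearest to Mas1 were Igfbp5, a binding protein of insulin-like growth factors, at 0.49, Fchsd2 at 0.63 and Osbpl11, a lipid-binding protein, at 0.79. Gm10389 was nearest to Perm1 at 0.98, Rprd2 at 1.05 and Wwp1, a ubiquitin ligase, at 1.23. Fchsd2 had 4471 and 4794 in Ascl5Mut/Mut against 993 and 849 in Ascl5WT/WT, and 3898 and 5385 in Ascl5Mut/WT against 1008 and 882. These distances are a description over 6 libraries, which share their genotype and depth for every gene.

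Of 1993 genes that passed the minimum mean in both tables and had a GENCODE position, 9.98% lay inside a gene on the other strand, and Gm10389 and Omg are the 2 of 7 members that do. Rai14 and Nf1 are members only because they enclose those 2 genes, and Nf1 did not pass the minimum mean. The count of members is therefore set by their choice and cannot be compared with that share.

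Marker sums of some other cell types were higher in the same libraries as the members. Osteoclast genes summed to 17744 and 11955 in Ascl5Mut/Mut against 539 and 359, and to 9217 and 2169 in Ascl5Mut/WT against 552 and 380, with 4 of 10 at 0 throughout, among them Calcr and Dcstamp. The protease gene Ctsk was called higher in Ascl5Mut/Mut (limma adjusted p = 0.0151). Keratinized oral epithelium summed to 21197 and 138030 in Ascl5Mut/Mut against 2902 and 658, and to 15461 and 54491 in Ascl5Mut/WT against 2964 and 685. The keratin genes Krt4 and Krt13 were called higher in both genotypes (limma adjusted p = 0.0151 and 0.0271 in Ascl5Mut/Mut, 0.000261 and 0.0062 in Ascl5Mut/WT), and Rptn, a cornified layer protein, in Ascl5Mut/Mut (limma adjusted p = 0.0403). Dentin and enamel matrix genes summed to 22664 and 20628 in Ascl5Mut/Mut against 765 and 5728, and to 30279 and 15358 in Ascl5Mut/WT against 784 and 5976. Most of the Ascl5Mut/Mut sums was 1 gene, the bone sialoprotein Ibsp. It had 21832 and 19262 against 329 and 5488 in Ascl5WT/WT (limma adjusted p = 0.143). In that comparison 3 of the 10 genes were at 0 throughout, among them the enamel gene Amelx. Dspp, a dentin matrix protein of the same list, was called higher in Ascl5Mut/WT (limma adjusted p = 0.000399) and was at 0 in both Ascl5Mut/Mut libraries. Endothelial genes summed to 3936 and 2247 in Ascl5Mut/Mut against 590 and 839, and to 1296 and 1544 in Ascl5Mut/WT against 574 and 850, with Tie1, Emcn and Esam at 0. No endothelial gene was counted high enough to test in either comparison. The largest value was Plvap at 1939 in Ascl5Mut/Mut replicate 1 and Pecam1 at 1157 in replicate 2. In Ascl5Mut/WT it was Egfl7 at 761 in replicate 1 and Plvap at 567 in replicate 2. Cdh5 of the same list was lower in Ascl5Mut/WT, at 0 and 138 against 223 and 493. All 4 sums were higher in every mutant library, as were 11.0% of the 2029 single genes tested in both tables. The part of these cell types in the members' values was not tested.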

How the data were processed

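Library construction used a SMARTer Stranded RNA kit, per the labels' protocols. The authors deposited normalized gene counts, treated as a linear signal, as 2 separately normalized tables (24972 genes each). Per the submitters' processing notes mm10 and DESeq2 were used. For aligner, annotation and strand setting, nothing is stated in the labels. Total normalized counts per library were 12304814 to 13118122. Depending on the library, 86.2% to 94.3% of values up to 5 steps were whole multiples to a tolerance of 0.1, too few to recover whole reads, so no count test was run. Exact permutation of 2 against 2 libraries cannot give a two-sided p below 0.333.

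Differences were fitted with limma 3.58.1 (R 4.3.3) with an intensity trend within each table, on log2(value + 120), for genes averaging 1000 or more, two-sided, with Benjamini-Hochberg adjusted p under 0.05 as a call. The fit was tested on simulated data. Named genes were the members, genes that overlap or flank them, the 3 nearest profiles of Perm1, Mas1 and Gm10389, and list genes that were called or best counted, some of which are not reported here. The members, lists, pseudocount and minimum were chosen with earlier results of these data known.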

Additional observations from a re-analysis of the deposited data

How the results depend on the processing

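The number of genes called moved with the libraries used, the variance model, the pseudocount and the filter. The main counts were 20 (Ascl5Mut/Mut) and 13 (Ascl5Mut/WT). It fell to 4 and 8 with a pseudocount of 1, to 0 and 0 without an intensity trend (242 and 190 genes at an unadjusted p under 0.05 by limma) and to 0 and 0 with a pseudocount of 1 and a minimum mean of 10 together (1280 and 1055 at an unadjusted p under 0.05). With a minimum mean of 10 it was 1 for Ascl5Mut/Mut, and also 1 with no filter, while for Ascl5Mut/WT it was 12 under either setting. With 1 library left out the Ascl5Mut/Mut count lay between 0 and 33 and the Ascl5Mut/WT count between 0 and 34, at 0 without either mutant library (113 to 262 at an unadjusted p under 0.05 by limma) and at 7 and 33 without Ascl5WT/WT replicate 1 and 2 for Ascl5Mut/Mut, and 20 and 34 for Ascl5Mut/WT. The cause was not tested. With the replicate block it was 36 and 37. Same-numbered libraries shared only a number, with deviations correlated at -0.01 and 0.02, so the block was not used. The log2 differences of Perm1, Mas1, Gm10389 and Omg lay between 1.06 and 3.47 under the alternatives, and their sign is fixed by how these genes were chosen. A depth of 90443 to 116513 estimated reads limits Nf1, Airn and most pathway genes to a few reads.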
